A study of Tupaia belangeri with 15 samples.

Results

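Latrophilins, FLRTs and teneurins are 3 small families of cell surface proteins, and the 10 genes described here are ADGRL1 to ADGRL3, FLRT1 to FLRT3 and TENM1 to TENM4, found by their own symbols among the 83605 features of the deposited tables. Latrophilins are adhesion G protein-coupled receptors that sit in the synaptic membrane and bind both FLRTs and teneurins on the facing cell. FLRTs are leucine-rich repeat proteins that also bind UNC5 guidance receptors, and teneurins are large transmembrane proteins that pair with latrophilins and with each other. In the retina, teneurins and their partners are known for matching bipolar, amacrine and ganglion cells within the inner plexiform layer. The genes were chosen by name, and ADGRL2 was also picked for its rise in senile microglia, so its levels in microglia are given below as a description with no test of the senile stage.

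The data were single-nucleus RNA counts from the retinas of 15 tree shrews (*Tupaia belangeri*, TS), 5 retinas in each of the groups Infancy (1.4 to 2.1 months), Mature (25 to 36 months) and Senile (86 to 87 months). No group carried a treatment or an engineered allele. Infant and mature TSs came from an animal centre and senile TSs were bought from another institute, so stage and source cannot be told apart in any comparison with the senile group. The libraries formed a set of 7 labelled polyA RNA and a set of 8 labelled total RNA, each with retinas of every stage, which also differed in the version of the counting software, and this processing set entered each comparison of stages.

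The libraries held 13429873 to 58734300 unique molecular identifiers (UMIs, each 1 counted RNA molecule). After filtering, 111825 nuclei were kept, 93732 lay in clusters named by marker genes, and 76020 also passed a gate that asked each nucleus to carry more of its own class's markers than of any other's. Levels are given as CPM, the UMIs of a gene scaled to 1000000 UMIs of that class in that retina. The classes held 26527 bipolar cells (BCs), 24574 amacrine cells (ACs), 13471 cones, 5291 Müller cells, 2949 retinal ganglion cells (RGCs), 988 astrocytes, 799 rods, 782 horizontal cells (HCs) and 639 microglia. Defining markers followed the names: ONECUT1 averaged 807 CPM in HCs, CSF1R averaged 1370 CPM in microglia and at most 1.22 in any other class, and the kainate receptor gene GRIK1 (feature GRIK1li1) averaged 13533 CPM in BCs against 95.1 to 508 in the other 8 classes. These markers were among those used to name and gate the classes, so they are no independent check. Fewer copies per nucleus and fewer nuclei of a subtype cannot be told apart in such sums, and levels are compared between cells, never between genes, because the tables carry no gene lengths.

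The 3 latrophilin genes had different leading classes. ADGRL1 (TSDBGID.949) was highest in glia, with 201, 253 and 350 CPM as the lowest, median and highest retina in Müller cells (271 ± 55.7, SD, n = 15) and 204 ± 53.0 in astrocytes (n = 14). It was at 75.7 to 108 CPM on average in RGCs, ACs, HCs, BCs and microglia and at 8.09 ± 3.07 in cones. Müller cells exceeded astrocytes by 0.52 ± 0.10 on the log2 scale (1.44-fold, edgeR adjusted p = 1.19e-06) and in 13 of 14 retinas, whereas RGCs and ACs were not told apart (edgeR adjusted p = 0.839).

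ADGRL2 (TSDBGID.25140) was highest in BCs, mainly in the ON BCs described below, while OFF BCs were near the level of rods. It ranged from 3306 through a median of 4345 to 5075 CPM in BCs (4295 ± 502, n = 15), and from 764 through 1076 to 1850 CPM in rods (1148 ± 316, n = 14). Every retina with rods had more in BCs than in rods, and the groups did not overlap (log2 difference 2.32 ± 0.21, 5.0-fold, edgeR adjusted p = 2.12e-19). The rods carried 134 CPM of GRIK1 and 26.5 CPM of the ON BC gene TRPM1, against 13533 and 439 CPM in BCs, and the part of BC RNA in the rod level was not tested. Cones had the lowest mean, 87.1 ± 37.8 CPM.

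ADGRL3 (TSDBGID.14999) was spread over neurons and macroglia. HCs held 1709, 2334 and 2721 CPM (lowest, median, highest; 2230 ± 331, n = 15) and Müller cells 1421, 1755 and 2000 CPM (1739 ± 203). HCs were above Müller cells in 14 of 15 retinas, by 0.33 ± 0.10 on the log2 scale (1.25-fold, edgeR adjusted p = 0.00393), with overlapping ranges. This call was lost with the stricter gate (0.18, edgeR adjusted p = 0.189), with at least 30 nuclei (0.0628), in the polyA RNA libraries (0.09, 0.585), without the low-count filter (0.14, 0.322) and without Mature 3 (0.0796). Astrocytes, RGCs, ACs and BCs followed at 1278, 1108, 1026 and 936 CPM and were not told apart between neighbours (edgeR adjusted p = 0.435 to 0.812). The next class down was microglia at 135 ± 73.1 CPM, 6.95-fold below BCs by the means and 12.2-fold in the fit (edgeR adjusted p = 1.94e-45), whose normalization between classes differs from that of CPM, and rods held 54.5 ± 28.4 CPM.

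Among the FLRT genes, FLRT1 (TSDBGID.11927) marked HCs. Its lowest, median and highest retinas were 313, 434 and 616 CPM in HCs (422 ± 98.6) and 66.5, 89.8 and 141 CPM in RGCs (96.1 ± 21.4). HCs were above RGCs in 15 of 15 retinas with no overlap (log2 difference 2.12 ± 0.09, 4.35-fold, edgeR adjusted p = 3.63e-45). RGCs and ACs (94.9 ± 22.0 CPM) were not told apart (edgeR adjusted p = 0.616), and BCs held 16.3 ± 4.39 CPM.

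FLRT2 (TSDBGID.21487) was highest in Müller cells, at 219, 372 and 576 CPM (380 ± 107), and next in ACs, at 226, 274 and 370 CPM (284 ± 42.6). The ranges overlapped, and 14 of 15 retinas had more in Müller cells (log2 difference 0.46 ± 0.11, 1.38-fold, edgeR adjusted p = 0.000159), and the call was lost without the low-count filter (0.17, edgeR adjusted p = 0.254). RGCs at 176 ± 45.1 and astrocytes at 166 ± 92.6 CPM were not told apart (edgeR adjusted p = 0.179), and the remaining 5 classes were at 5.32 to 38.9 CPM on average. FLRT3 (TSDBGID.2438) had 221 UMIs in all 15 libraries. Its highest class mean, 3.01 CPM in HCs, rested on 5 UMIs, rods, astrocytes and microglia had 0, and it passed no low-count filter and was not tested.

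The 4 teneurin genes had different classes at the top, though the first 2 were not told apart for TENM3. TENM1 (TSDBGID.19454) had 544, 688 and 927 CPM in ACs (683 ± 97.3), 520 ± 78.9 in BCs and 489 ± 75.8 in RGCs. ACs were above BCs in 15 of 15 retinas (log2 difference 0.33 ± 0.13, 1.26-fold, edgeR adjusted p = 0.0243), a call lost in the total RNA libraries (0.21, edgeR adjusted p = 0.234) and over whole clusters without the gate (0.24, 0.215). BCs and RGCs were not told apart (edgeR adjusted p = 0.451). RGCs were in turn 8.14-fold above HCs, and the other 6 classes were at 14.7 to 49.1 CPM. A second feature named as a copy, TENM1li1, carried 17224 UMIs and followed the same 3 classes at 59.7, 47.0 and 45.0 CPM in ACs, BCs and RGCs. Reads shared between the 2 features were not resolved here.

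TENM2 (TSDBGID.12252) was highest in HCs, with 3070, 3977 and 6408 CPM (4120 ± 793), followed by BCs at 2318 ± 396 and ACs at 2181 ± 331. HCs exceeded BCs in 15 of 15 retinas (log2 difference 0.75 ± 0.21, 1.68-fold, edgeR adjusted p = 0.00108), and BCs and ACs were not told apart (edgeR adjusted p = 0.595). Rods, at 342 CPM, were not told apart from microglia at 308 (edgeR adjusted p = 0.368), and Müller cells and cones held 45.1 ± 31.4 and 43.4 ± 44.6 CPM.

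TENM3 (TSDBGID.14817) was shared by a neuron and a glial class. It ranged from 1610 to 3062 CPM in BCs (median 2192, mean 2193 ± 334) and from 1430 to 2490 CPM in Müller cells (median 1816, mean 1899 ± 315). These 2 classes were not told apart (log2 difference 0.23 ± 0.18, edgeR adjusted p = 0.274, BCs above in 11 of 15 retinas), nor were ACs at 922 and RGCs at 889 CPM (edgeR adjusted p = 0.933).

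TENM4 (TSDBGID.4948) was highest in RGCs, with 390, 516 and 666 CPM (522 ± 77.1), and next in ACs, with 413 ± 61.8. RGCs were above ACs in 15 of 15 retinas (log2 difference 0.35 ± 0.10, 1.28-fold, edgeR adjusted p = 0.00120), which was lost in the polyA RNA libraries (0.21, edgeR adjusted p = 0.119) and without the low-count filter (0.14, 0.402). ACs were 3.49-fold above BCs at 113 ± 23.8 CPM. In all, 8 of the 9 tested genes had a leading class that differed from the next, 4 of them with the losses given above, against 52.9% of all 11675 features tested in the same way, so that a leading class above the next was common among all features. By mean level, HCs came first for ADGRL3, FLRT1 and TENM2, BCs for ADGRL2 and TENM3, Müller cells for ADGRL1 and FLRT2, ACs for TENM1 and RGCs for TENM4. For TENM3, BCs were not told apart from Müller cells, and for ADGRL3 the call of HCs over Müller cells was lost in the settings given above.

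**Figure D1:**
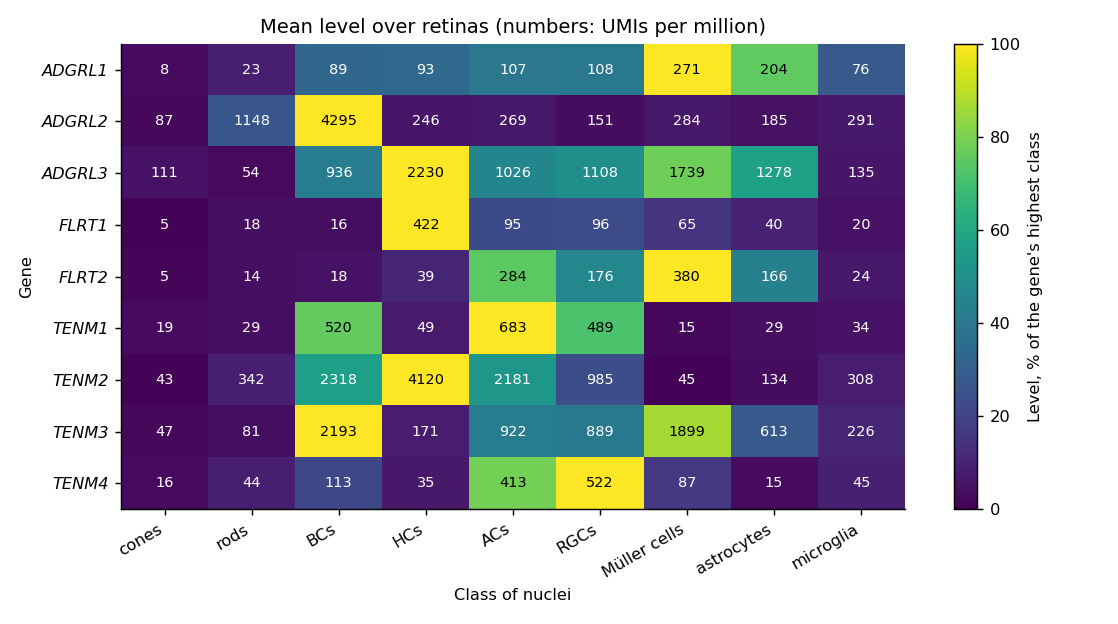
Mean CPM over retinas (the number in each cell, CPM of the class) of the 9 tested genes in the 9 retinal classes, coloured as a percentage of the gene's highest class. ADGRL2 stands at 4295 CPM in BCs and 1148 in rods, FLRT1 at 422 in HCs and TENM1 at 683, 520 and 489 in ACs, BCs and RGCs.

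Within the cones, S-cones (blue opsin, OPN1SW) and L-cones (red opsin, OPN1LW) were compared in the 13 retinas with enough S-cones. All 15 libraries together held 369 S-cone nuclei. ADGRL3 was at 1160, 1515 and 2211 CPM (lowest, median, highest) in S-cones and at 15.1, 36.6 and 87.7 CPM in L-cones. ADGRL2 was at 451, 569 and 897 CPM in S-cones and at 27.0, 52.8 and 158 CPM in L-cones. TENM4 was at 90.6, 191 and 251 CPM against 4.41, 6.27 and 20.5 CPM. For each of these genes every S-cone value lay above every L-cone value, in 13 of 13 retinas.

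The log2 differences were 5.23 ± 0.12 for ADGRL3 (37.6-fold, edgeR adjusted p = 1.34e-56), 3.34 ± 0.11 for ADGRL2 (10.2-fold, edgeR adjusted p = 7.80e-45) and 4.45 ± 0.18 for TENM4 (21.9-fold, edgeR adjusted p = 2.07e-39). These were 3 of the 5 members tested, against 14.3% of all features. TENM4 was low in L-cones and entered the test through the S-cones, where it was high, so its call carries that limit. TENM2 (log2 difference -0.13, 95% interval -0.60 to 0.35) and TENM3 (-0.36, -0.78 to 0.07) were not called, with edgeR adjusted p = 0.841 and 0.346. Genes that are high in BCs differed among themselves between the cones: CA10 averaged 29.0 CPM in S-cones and 36 in L-cones, TENM2 and TENM3 were at 28.3 and 37.6 CPM in S-cones, and the neurexin gene NRXN3 averaged 10059 CPM in S-cones and 329 in L-cones. The part of BC RNA in these differences was not tested. The class mean of ADGRL3 in cones, 111 CPM, thus averaged nuclei at very different levels.

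In BCs, 10926 ON BCs (carrying an ON marker and little GRIK1) were set against 7882 OFF BCs (rich in GRIK1, no ON marker), and 5 of 9 tested members differed, against 45.2% of all features. ADGRL2 was at 5516, 7506 and 8746 CPM in ON BCs and at 749, 994 and 1748 CPM in OFF BCs. TENM3 ran the other way, with 299, 535 and 747 CPM in ON BCs and 3355, 4147 and 5385 CPM in OFF BCs. ADGRL3 was at 484, 575 and 817 CPM in ON BCs and at 1260, 1565 and 1719 CPM in OFF BCs. None of these pairs of ranges overlapped, and each direction held in 15 of 15 retinas.

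On the log2 scale ON BCs were above OFF BCs by 2.68 ± 0.05 for ADGRL2 (6.41-fold, edgeR adjusted p = 1.58e-24) and by 2.02 ± 0.15 for FLRT2 (4.04-fold, edgeR adjusted p = 2.03e-12), a gene at 28.7 ± 10.2 against 6.36 ± 2.6 CPM. FLRT2 was low in OFF BCs and could pass the low-count filter through the ON BCs, where it was high. Its call, counted above, carries that limit. OFF BCs were 9.19-fold above ON BCs for TENM3 (log2 difference -3.20 ± 0.08, edgeR adjusted p = 4.43e-23) and 2.69-fold above for ADGRL3 (-1.43 ± 0.05, edgeR adjusted p = 5.74e-19). TENM4 was slightly higher in ON BCs (95.8 against 77.4 CPM, 0.39 ± 0.09, edgeR adjusted p = 0.000945), in 13 of 15 retinas. For ADGRL1, TENM1 and TENM2 the 95% intervals of the log2 difference were -0.13 to 0.10, -0.11 to 0.07 and 0.00 to 0.18, and FLRT1 was not called either (edgeR adjusted p = 0.117). Thus, in the sums of ON and OFF cells, the latrophilins ADGRL2 and ADGRL3 were divided in opposite directions, and the teneurin TENM3 lay with ADGRL3. Single clusters departed from this, as given below.

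**Figure D2:**
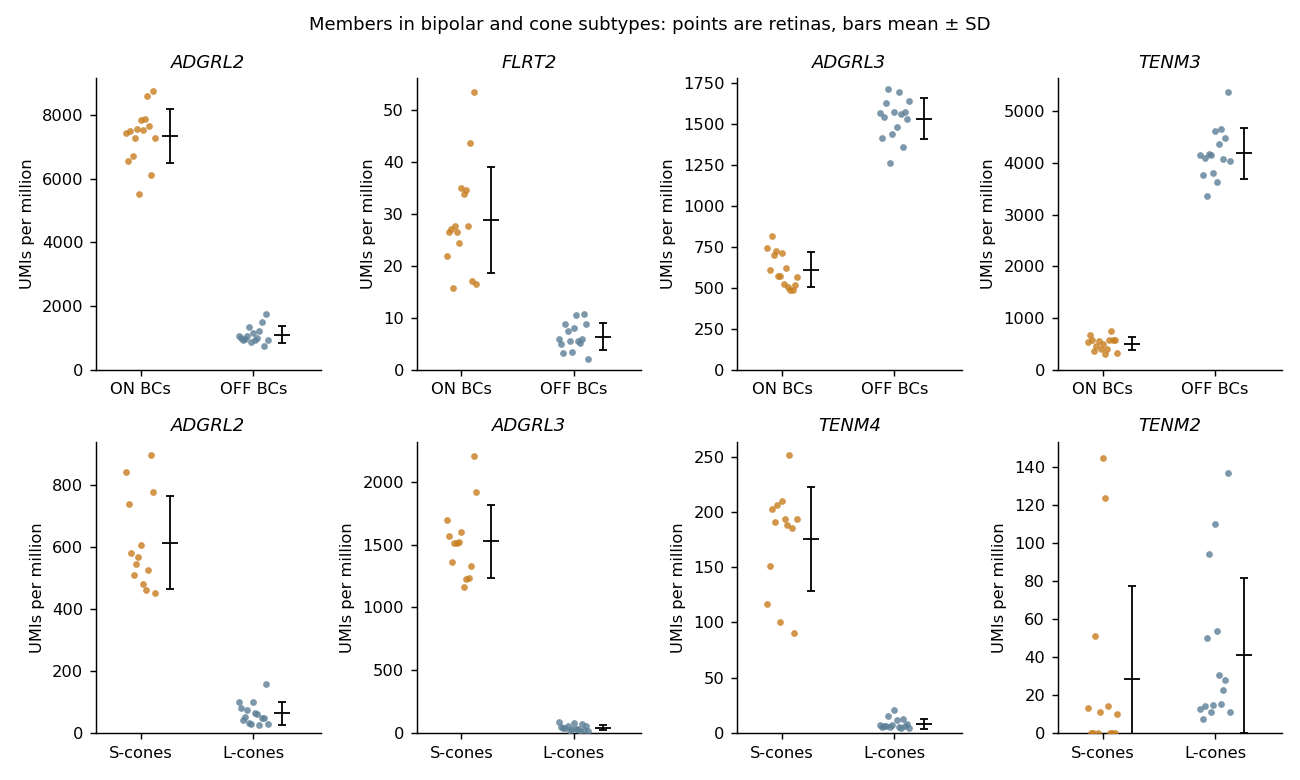
CPM (linear axes from 0) of members in ON and OFF BCs and in S-cones and L-cones, with points for retinas and bars for the mean ± SD, cut at 0 for TENM2 where the SD exceeded the mean. ADGRL2 lies at 7344 CPM in ON BCs and 1095 in OFF BCs, TENM3 at 503 and 4185, and ADGRL3 at 1527 CPM in S-cones and 42.5 in L-cones.

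The whole clusters within BCs, which are given without a test, spread further than the ON and OFF groups. The members took no part in building the clusters. Over 25 BC clusters of at least 100 nuclei, TENM1 ran from 12.1 to 2211 CPM and was highest in a cluster of 1563 nuclei led by ST8SIA6, RFX3 and VSX1, a transcription factor of cone BCs. FLRT2 ran from 0 to 254 CPM and exceeded 50% of its highest value in a single cluster of 1255 nuclei led by PTPRQ and OPRM1. TENM2 reached 7310 CPM in a cluster of 343 nuclei led by the serotonin receptor gene HTR2C, 7267 CPM in the same cluster of 1255 nuclei and 5165 CPM in a cluster of 1733 nuclei, with a median of 2110 CPM over the clusters.

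ADGRL2 ran from 467 to 12157 CPM over the same BC clusters, and TENM3 from 70.7 to 4347. TENM3 and ADGRL3 (155 to 1993 CPM) were both highest in the cluster of 2091 nuclei led by GRIK1 and COL19A1. TENM4 was highest, at 549 CPM, in a cluster of 1733 nuclei led by ADRA1D, NXPH2 and NETO1, against a median of 93.6 CPM. That cluster held 2947 CPM of TENM3 but only 201 of ADGRL3. Another cluster, of 2188 nuclei, held 7136 CPM of ADGRL2 together with 1387 of ADGRL3 and 722 of TENM3. The division seen in the ON and OFF sums was therefore not found in every cluster. So TENM1, whose level was not told apart between ON and OFF BCs, varied strongly among BC clusters.

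In ACs, 7035 glycinergic, 4994 GABAergic and 2433 starburst nuclei were compared, the last being the cholinergic ACs of direction selective circuits. Glycinergic and GABAergic ACs differed in 9 of 9 tested members, against 43.1% of all features. TENM1 was at 174, 266 and 390 CPM in glycinergic ACs and at 868, 1015 and 1302 CPM in GABAergic ACs. TENM4 was at 176, 254 and 390 CPM against 513, 576 and 727 CPM, and ADGRL2 at 62.3, 121 and 156 CPM against 263, 338 and 534 CPM. These ranges did not overlap, and GABAergic ACs were higher in 15 of 15 retinas.

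GABAergic ACs were thus 4.06-fold above glycinergic ACs for TENM1 (log2 difference -2.02 ± 0.08, edgeR adjusted p = 3.86e-16), 3.26-fold for ADGRL2, 2.46-fold for TENM4, 2.31-fold for TENM3 and 1.71-fold for ADGRL3. Glycinergic ACs were higher for TENM2 (1803 against 1387 CPM, 1.26-fold, edgeR adjusted p = 9.06e-07) and, by small margins, for ADGRL1 (1.19-fold) and FLRT2 (1.15-fold). FLRT1 was 1.14-fold higher in GABAergic ACs. For ADGRL1, FLRT1 and FLRT2 the ranges overlapped, and 13, 11 and 12 of 15 retinas showed the direction. These 3 calls were lost within a processing set, ADGRL1 in the polyA RNA libraries (edgeR adjusted p = 0.249), FLRT2 in the total RNA libraries (0.200) and FLRT1 in both (0.123 and 0.0535).

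TENM2 was higher in starburst ACs. They held 5158, 6605 and 10718 CPM of it, against 1129, 1380 and 2143 CPM in the other GABAergic ACs, with no overlap (log2 difference 2.33 ± 0.05, 5.01-fold, higher in 15 of 15 retinas, edgeR adjusted p = 1.31e-23). FLRT2 (451 against 242 CPM, 1.91-fold) and FLRT1 (142 against 91.1 CPM, 1.57-fold) were also higher in starburst ACs in 15 of 15 retinas. TENM4 (125 against 595 CPM) was 4.66-fold and TENM1 (277 against 1024 CPM) 3.59-fold lower in starburst ACs, again without overlap. In this pair 8 of 9 tested members differed, against 47.1% of all features, and ADGRL1 was not called (95% interval of the log2 difference -0.04 to 0.21, edgeR adjusted p = 0.321).

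**Figure D3:**
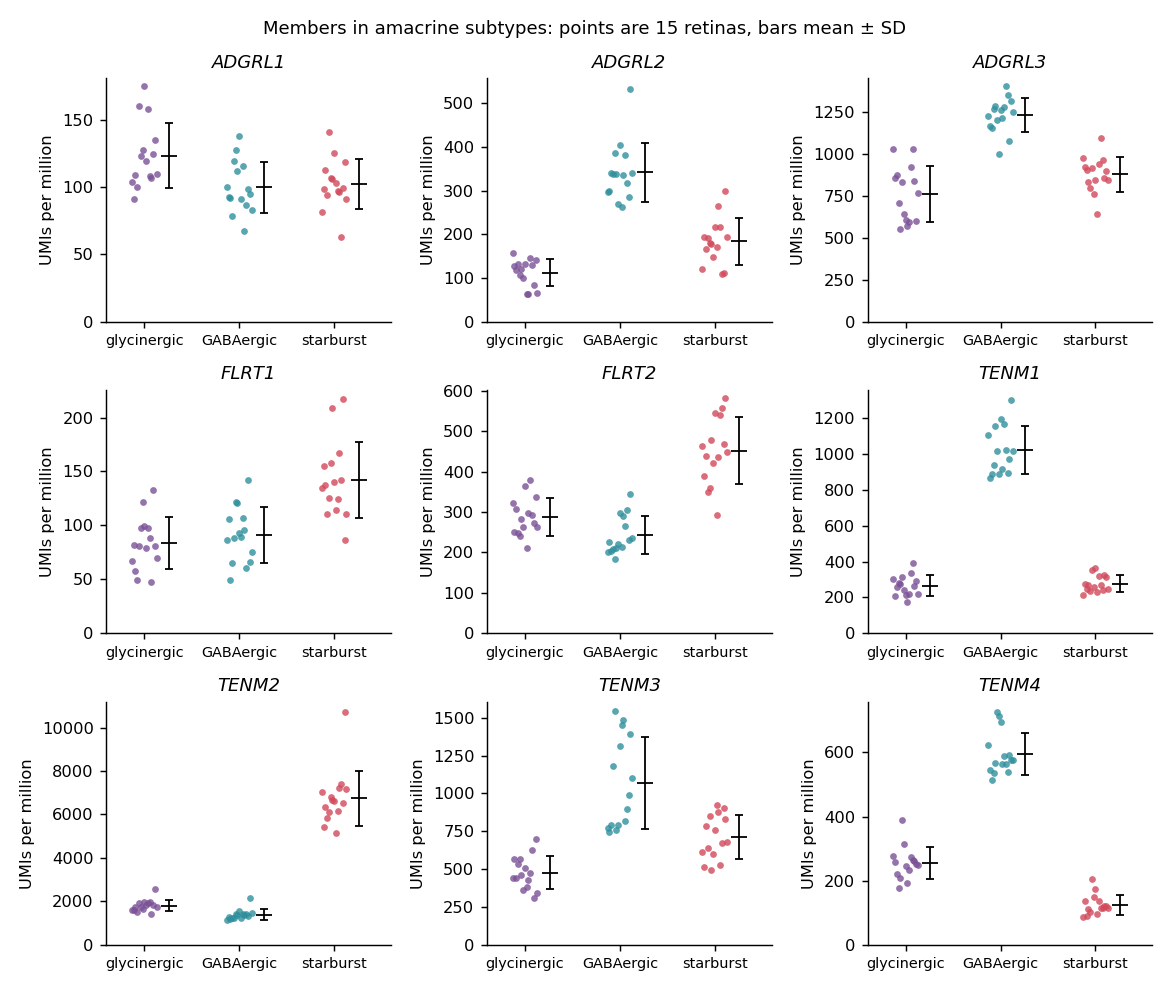
CPM (linear axes from 0) of the 9 tested genes in glycinergic, GABAergic and starburst ACs, with points for the 15 retinas and bars for the mean ± SD. TENM2 lies at 1803, 1387 and 6746 CPM, TENM1 at 266, 1024 and 277, and TENM4 at 255, 595 and 125.

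Over 42 AC clusters of at least 100 nuclei, again without a test, TENM3 was highest in a cluster of 1174 nuclei led by POU3F3, the tachykinin receptor gene TACR1 and the calcium-binding protein gene CALB2. It held 7784 CPM there, followed by clusters at 3862, 3238, 3127 and 2495 CPM (lowest 44.0, median 290 CPM). The same cluster had the highest FLRT1, 239 CPM. TENM1 was highest, at 2236 CPM, in a cluster of 941 nuclei led by PDGFRA, CBLN1 and TACR1. ADGRL2 reached 2093 CPM in 697 nuclei led by the neuropeptide gene TAC1 and the somatostatin receptor gene SSTR2, against a median of 156 CPM.

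TENM2 came within 50% of its highest AC value in 2 clusters, at 7949 CPM in 2611 nuclei whose leading genes include the choline transporter gene SLC5A7 and at 6630 CPM in 498 nuclei led by FIBCD1, CHST9 and LGR5, against a median of 1448 CPM. TENM4 reached 1364 CPM in 713 AC nuclei led by the neuropeptide genes NPY and TAC3. ADGRL3 reached 2843 CPM in 838 nuclei led by CHST9, and FLRT2 787 CPM in 671 nuclei led by TRHDE. Among the 4 RGC clusters TENM4 ran from 500 to 599 CPM, TENM3 from 667 to 1097, FLRT2 from 72.2 to 280, ADGRL2 from 64.8 to 174, and TENM1 from 296 to 975, with the highest value in 1085 nuclei led by the transcription factor gene RUNX1. In the 2 Müller clusters TENM3 was at 1765 and 2029 CPM and FLRT2 at 375 and 392 CPM.

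A comparison of H1 and H2 HCs had been planned with LHX1 for H1 and ISL1 for H2, both markers of the paper, but here these did not separate them. LHX1 had only 249 UMIs in all libraries. MEGF11, which the paper names as its specific marker of H1, was not used here. HCs were instead split by the transcription factor gene ISL1 alone, which the paper assigns to H2, in 4 retinas with enough ISL1-positive nuclei. In those, 3 of 6 tested members differed, against 18.8% of all features. ADGRL2 was at 470 to 1525 CPM in ISL1-positive HCs (792 ± 501, n = 4), above every ISL1-negative value of the 15 retinas, which reached 453 CPM (log2 difference 1.95 ± 0.21, 3.86-fold, edgeR adjusted p = 6.60e-06). TENM2 (0.41 ± 0.12, edgeR adjusted p = 0.0228) and TENM3 (0.71 ± 0.22, edgeR adjusted p = 0.0311) were higher in 4 of 4 retinas with overlapping ranges. Both calls were lost with DESeq2, without the low-count filter and in 3 fits each that left out a retina (TENM2 without Mature 3, Mature 4 or Senile 5, edgeR adjusted p = 0.0589 to 0.160, and TENM3 without Mature 4, Senile 1 or Senile 5, 0.0998 to 0.174). ISL1 is also a gene of ON BCs, and BC transcripts were present in both groups. In the 4 retinas (Mature 3, Mature 4, Senile 1 and Senile 5) CA10 was at 771, 634, 1724 and 746 CPM in ISL1-positive HCs and at 247, 213, 562 and 285 in ISL1-negative HCs, TRPM1 at 88.7, 0, 33.2 and 0 against 16.5, 12.2, 0 and 4.16, and GRIK1 at 300, 87.4, 0 and 479 against 316, 73.0, 1189 and 395. CA10 was thus higher in ISL1-positive HCs of each retina and GRIK1 was not. Their part in the result was not tested.

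Of the 18 partner genes looked at (UNC5 and FGF receptors bound by FLRTs, neurexins and contactin 6 bound by latrophilins, SHANK scaffolds and others), 15 could be tested. Among the UNC5 receptors, UNC5A and UNC5B, at 109 and 180 CPM, were highest in HCs, which also led for FLRT1, UNC5D in BCs (1201 CPM) and UNC5C in astrocytes (1837 CPM). The neurexin NRXN3 was highest in BCs (17166 CPM) and NRXN2 in ACs (157 CPM). GNA12 and GNA13, G protein subunits to which latrophilins can couple, were highest in microglia at 377 and 164 CPM.

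Between subtypes, partners differed in 4 of 7 tested for S-cones and L-cones (14.3% of all features), 8 of 12 for ON and OFF BCs (45.2%), 9 of 15 for glycinergic and GABAergic ACs (43.1%), 11 of 14 for starburst and other GABAergic ACs (47.1%) and 5 of 7 for the HC split (18.8%). NRXN3 was 33.8-fold and the scaffold gene SHANK3 7.61-fold higher in S-cones than in L-cones, and the netrin receptor gene UNC5C 8.31-fold higher in L-cones (edgeR adjusted p = 3.60e-54, 5.35e-28 and 1.01e-17). The contactin gene CNTN6 was 8.57-fold higher in starburst than in other GABAergic ACs (edgeR adjusted p = 5.78e-23) and 5.64-fold higher in OFF than in ON BCs (edgeR adjusted p = 4.37e-14). UNC5C and UNC5D were 4.00-fold and 3.14-fold higher in ON BCs, the side on which ADGRL2 and, with the limit given above, FLRT2 were higher.

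Few pairs of member and class passed the test between stages. With each class fitted on its own over all its features, 1 of 62 tested pairs of member and class passed between Mature and Infancy, against 0.975% of all features. Between Senile and Infancy 1 of 62 passed, against 1.5%, and between Senile and Mature 0 of 62, against 0.0254%. The senile pair, TENM2 in microglia, entered the test through the later stages alone and is only described below. ADGRL2 in microglia is not among the 62 pairs. At an unadjusted p under 0.05 the counts were 10, 11 and 10 (16.1%, 17.7% and 16.1% of the pairs), where 11.4%, 9.66% and 9.67% of all features lay under it, and DESeq2 passed 2, 4 and 1, against 2.15%, 2.35% and 0.492%. The median log2 differences were 0.06, 0.07 and -0.04, against class medians of all features between -0.03 and 0.03, and 54, 50 and 53 pairs lay within 0.5. The comparisons with infancy share the infant retinas.

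**Figure D4:**
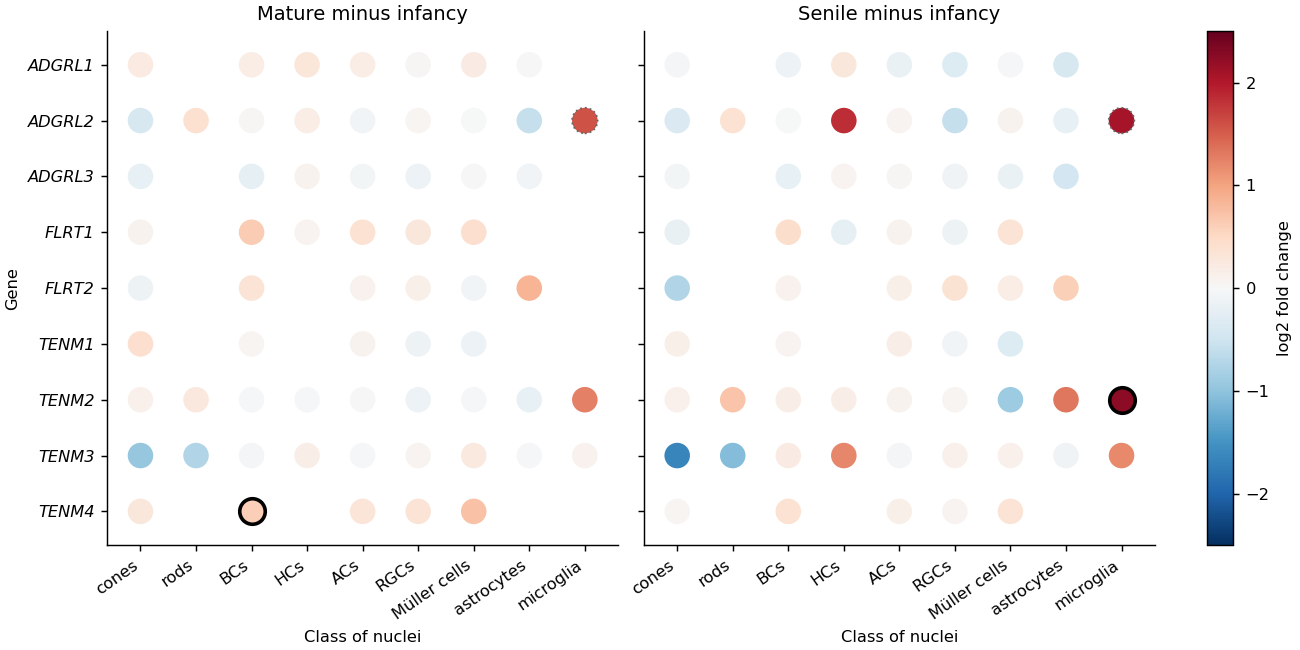
Log2 fold change (colour) of each gene and class with enough counts, for Mature minus Infancy and Senile minus Infancy (edgeR quasi-likelihood fit, processing set as covariate). Black rings mark an adjusted p under 0.05, the dotted ring marks ADGRL2 in microglia, for which no test is given, and most circles are pale. The ringed pairs are TENM4 in BCs at 0.61 (Mature minus Infancy) and TENM2 in microglia at 2.24 (Senile minus Infancy), which passed the low-count filter through the later stages alone.

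TENM4 rose in BCs between infancy and maturity. The infant retinas held 89.1, 89.2, 91.7, 81.4 and 90.4 CPM, the mature retinas 162, 150, 131, 105 and 126, and the senile retinas 122, 108, 126, 103 and 123. All mature values lay above all infant values, and so did all senile values. The difference Mature minus Infancy was 0.61 ± 0.10 on the log2 scale (1.53-fold, edgeR adjusted p = 0.00465, with 1.12% of the features tested in BCs called). Senile minus Infancy was 0.38 (edgeR adjusted p = 0.111, DESeq2 adjusted p = 0.0111). Within the total RNA libraries alone the mature difference was 0.53 and did not pass (edgeR adjusted p = 0.331).

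Within the BC subtypes, fitted after the class results were seen, TENM4 rose in OFF BCs. OFF BCs held 45.5, 37.5, 42.0, 50.7 and 46.0 CPM of TENM4 in infancy, 94.5, 98.2, 75.1, 61.2 and 71.9 in maturity and 94.5, 151, 111, 83.5 and 98.3 in senility, with no infant value reaching any later value. The log2 differences were 0.83 ± 0.16 (edgeR adjusted p = 0.0236) and 1.19 ± 0.17 (edgeR adjusted p = 0.000530), in a subtype where 0.607% and 0.858% of features passed. ON BCs held 85.1, 91.5, 101, 66.5 and 86.5 CPM in infancy, 100, 125, 109, 85.0 and 113 in maturity and 104, 62.3, 94.4, 111 and 102 in senility, and these overlapped. BCs in neither group were not fitted, and TENM4 in all BCs averaged 113 CPM, above the means of both groups. The rise in BCs was thus not assigned to OFF BCs alone. TENM4 also differed among BC clusters, and a change in their shares was not tested.

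Whether the difference between OFF and ON BCs itself changed with stage was tested in a fit of both subtypes over all 11789 features, blocked by retina and with the processing set allowed its own subtype difference. It was added after the subtype results were seen. TENM4 in OFF over ON BCs was higher in senility than in infancy by 0.84 ± 0.18 on the log2 scale (edgeR adjusted p = 0.0382, with 0.246% of features called). Between maturity and infancy the value was 0.43 ± 0.17 (edgeR adjusted p = 0.617, with 0.136% called). The senile difference was 1.27 in the polyA RNA libraries and 0.56 in the total RNA libraries (edgeR adjusted p = 0.565 in the latter), and its call was lost in 8 of the 15 fits that left out a retina, with adjusted p from 0.0528 to 0.136, those without Infancy 1, 2, 3 or 5 or without Senile 1, 2, 3 or 5. The rise in OFF BCs alone was lost in the total RNA libraries (0.53 and 0.96, edgeR adjusted p = 0.497 and 0.157), and for maturity also without Infancy 2, Infancy 3, Mature 1 or Mature 2 (0.0605 to 0.0760).

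ADGRL3 fell in ON BCs with senility. Infant ON BCs held 745, 607, 817, 700 and 727 CPM, mature ON BCs 575, 573, 710, 522 and 624, and senile ON BCs 505, 486, 484, 514 and 566. All senile values lay below all infant values (Senile minus Infancy -0.57 ± 0.10 on the log2 scale, edgeR adjusted p = 0.00621, with 1.06% of features called). OFF BCs were at means of 1577, 1491 and 1535 CPM. In the fit of both subtypes, ADGRL3 in OFF over ON BCs was 0.42 ± 0.09 higher in senile than in infant retinas (edgeR adjusted p = 0.0498) and 0.25 higher than in mature retinas (edgeR adjusted p = 0.716, with 0.0424% of features called). The first call was lost in each processing set alone (0.49 and 0.38, edgeR adjusted p = 0.267 and 0.578) and in 11 of the 15 fits without a retina, all but those without Infancy 2, Mature 1, Mature 4 or Mature 5. The fall in ON BCs was -0.60 and -0.50 within the sets, without passing (edgeR adjusted p = 0.0823 and 0.499), and the call held with any single retina left out.

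Over the 8 subtypes with enough retinas, 1 of 62 pairs of member and subtype passed between Mature and Infancy (0.756% of all features), 3 of 62 between Senile and Infancy (1.04%) and 1 of 62 between Senile and Mature (0.0102%). Besides TENM4 in OFF BCs and ADGRL3 in ON BCs, the calls were ADGRL2 in ISL1-negative HCs, at 1.97 ± 0.37 over infancy (edgeR adjusted p = 0.0142, with 0.499% of features called) and 1.87 over maturity (edgeR adjusted p = 0.0329, with 0.125% called). The first call was lost in each processing set (edgeR adjusted p = 0.0631 and 0.102) and without Infancy 4 or Infancy 5 (0.0825 and 0.0531), and the second in the total RNA libraries (1.45, 0.538) and in 7 of the 15 fits that left out a retina. In the same nuclei the BC gene CA10 was at 70 to 198 CPM in infancy, 31.9 to 247 in maturity and 232 to 562 in senility, and GRIK1 at 27.4 to 201, 19.2 to 1363 and 0 to 1189 CPM. The ON BC marker TRPM1 was at 0 to 15.5 CPM in infancy, 0 to 16.5 in maturity and 0 to 7.66 in senility. Their part in the result was not tested.

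TENM2 in microglia was the pair counted between Senile and Infancy at the level of classes, and its levels are given as a description. It entered the test only through the stages where it was high, since retinas at or over the level that the low-count filter asks for, 187 CPM, numbered 0 in infancy, 4 in maturity and 5 in senility. Infant microglia held 163, 131, 185, 57.2 and 79.0 CPM, mature microglia 275, 302, 207, 73.8 and 637, and senile microglia 767, 344, 274, 479 and 648. All senile values lay above all infant values (fitted log2 difference 2.24 ± 0.44, 4.74-fold, in a class where 2.09% of the 1196 features tested were called). The values rested on 7 to 76 UMIs per retina. The adjusted p exceeded 0.05 without Infancy 4 or Infancy 5, in each processing set alone and over whole microglia clusters without the gate, and with the stricter gate TENM2 fell under the low-count filter.

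Neuronal transcripts were present in the microglia, and the cone, BC and AC markers, like those of Müller cells and astrocytes, had their highest medians in the senile retinas, those of RGCs in infancy and those of rods in maturity. Over all retinas 3 of 9 cone, 5 of 10 rod, 1 of 8 BC, 1 of 4 HC, 2 of 9 AC and 2 of 10 RGC markers were at 0. The summed 8 BC markers were at 296 to 498 CPM in infant, 242 to 3471 in mature and 82.1 to 1408 in senile microglia (medians 368, 563 and 781). The summed cone markers were at 94.9 to 891, 90.5 to 967 and 249 to 1136 CPM (medians 166, 321 and 597), and the summed AC markers at 49.1 to 646, 45.9 to 423 and 162 to 772 CPM (medians 207, 147 and 413). The summed RGC markers had medians of 394, 196 and 344 CPM, and the stage medians of the summed rod, Müller and astrocyte markers lay between 55.4 and 454 CPM. GRIK1 had medians of 56.2, 94.9 and 103 CPM. NRXN3, at 17166 CPM in BCs, was 1.85 ± 0.45 higher on the log2 scale in the same senile microglia (edgeR adjusted p = 0.0407), with means of 679 and 2019 CPM. That call was lost without the set term (0.167), with the stricter gate (0.149), with at least 30 nuclei (0.0663), in each set alone (0.499 and 0.116), over whole clusters (0.0798) and in 8 of the 15 fits that left out a retina. The part of RNA from other cells in the TENM2 levels was not tested.

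ADGRL2 in microglia, the value behind its choice, is given without a test of the senile stage. Infant microglia held 133, 225, 55.4, 40.9 and 63.2 CPM, mature microglia 390, 60.4, 180, 94.9 and 1053, and senile microglia 0, 447, 448, 605 and 563. The senile values thus comprised 4 retinas above every infant retina and 1 retina, Senile 1, without any ADGRL2 UMI, and the highest value was a mature retina. All of these rested on 256 UMIs. As a percentage of the level in BCs of the same retina, ADGRL2 in microglia was at 0.975 to 5.81 in infancy, 1.83 to 23.3 in maturity and 0 to 13.9 in senility, and GRIK1 at 0.230 to 2.69, 0.161 to 24.4 and 0.553 to 5.13. TRPM1, from the ON BCs where ADGRL2 is high, was at 0 to 7.40% of its BC level in infancy, 0 to 14.4% in maturity and 0 to 14.5% in senility (medians 3.12, 3.19 and 0%), with no UMI in 4 of the 5 senile retinas. TRPM1 had only 13 UMIs in all microglia, so its values in single retinas were at the floor of the count. The part of BC RNA in the ADGRL2 levels was not tested.

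ADGRL2 in HCs was higher in senility without passing the test. The retinas held 120, 77.3, 64.6, 180 and 134 CPM in infancy, 43.0, 50.3, 311, 234 and 89.5 in maturity and 750, 323, 390, 670 and 258 in senility. All senile values lay above all infant values, while they overlapped the mature ones (Senile minus Infancy 1.84 ± 0.43, edgeR adjusted p = 0.0881; Senile minus Mature 1.66, edgeR adjusted p = 0.169). It passed with DESeq2 (adjusted p = 0.0157), in the polyA RNA libraries alone (edgeR adjusted p = 0.00157), without the low-count filter (2.7e-06), without Mature 3 (0.0303) and without Senile 5 (0.0209). Senile minus Mature passed with DESeq2, without the low-count filter and in the polyA RNA libraries. The summed BC markers in HCs also differed, at 218 to 614 CPM in infant, 135 to 1530 in mature and 416 to 1858 in senile retinas. TRPM1 in HCs had means of 11.3, 12.4 and 4.24 CPM in infancy, maturity and senility. The part of BC RNA in the result was not tested.

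TENM3 in cones was lower in senility without passing the test. Infant cones held 49.8, 48.5, 63.0, 44.8 and 101 CPM, mature cones 12.6, 14.9, 91.1, 82.3 and 49.8, and senile cones 10.3, 16.3, 33.6, 75.6 and 15.1. The groups overlapped and the difference Senile minus Infancy of -1.66 ± 0.45 did not pass (edgeR adjusted p = 0.0763). It passed with DESeq2 (adjusted p = 0.00467), with the stricter gate (edgeR adjusted p = 0.0326) and in the polyA RNA libraries alone (0.00301). It also passed without the low-count filter (edgeR adjusted p = 1.4e-11), without Infancy 4 (0.0184) and without Senile 4 (0.0124). The OFF BC marker GRIK1 in L-cones was at 24.7 to 188 CPM in infancy, 28.5 to 265 in maturity and 25.8 to 371 in senility, highest within each stage in Infancy 5, Mature 3 and Senile 4, and its part in the TENM3 levels was not tested.

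**Figure D5:**
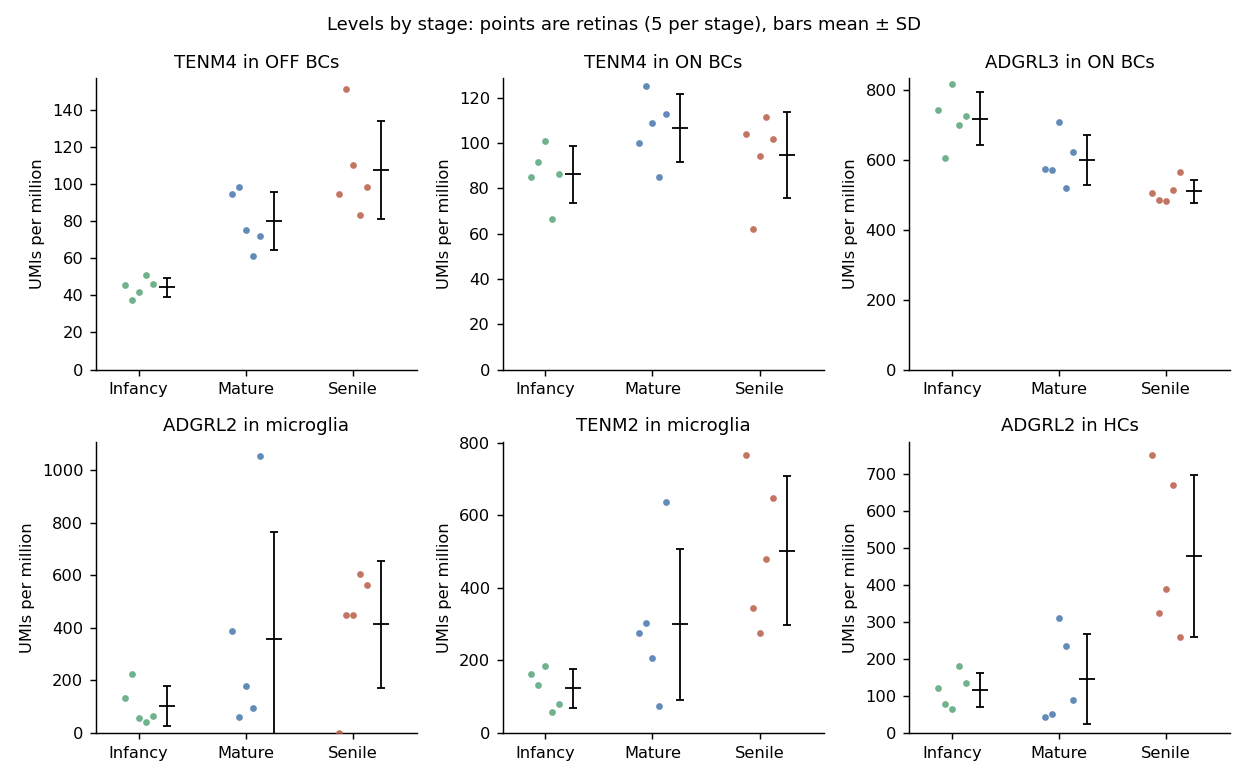
CPM (linear axes from 0) in each retina by stage, with bars for the mean ± SD (cut at 0), for TENM4 in OFF and ON BCs, ADGRL3 in ON BCs, ADGRL2 and TENM2 in microglia and ADGRL2 in HCs. The infant values of TENM4 in OFF BCs, 37.5 to 50.7 CPM, lie below all mature and senile values, and the senile values of ADGRL2 in microglia run from 0 to 605 CPM.

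Of the partner genes, 1 of 92 tested pairs passed between Mature and Infancy (0.975% of all features) and 2 of 92 between Senile and Infancy (1.5%). UNC5D, a netrin receptor gene that FLRTs bind, rose in BCs from 984, 945, 937, 953 and 1291 CPM in infancy to 1322, 1275, 1438, 1294 and 1450 in maturity (log2 difference 0.36 ± 0.08, edgeR adjusted p = 0.0447), with Infancy 5 above 1 mature retina. CNTN6 rose in BCs from 31.1, 24.7, 29.5, 20.1 and 25.4 CPM in infancy to 36.1, 54.9, 67.1, 86.7 and 51.6 in senility without overlap (1.10 ± 0.25, edgeR adjusted p = 0.0329, with 1.41% of features called). Its call was lost in the polyA RNA libraries (0.50, edgeR adjusted p = 0.396), in the total RNA libraries (1.6, 0.122) and in 6 of the 15 fits that left out a retina.

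The genes whose levels over the 133 sums of class and retina were most like 8 of the members are given as a description, since the points share libraries and depth. For the latrophilins these were DENND1B (Pearson r = 0.873 with ADGRL1), BCL2L13 (0.795 with ADGRL2) and the glutamate receptor gene GRIA4 (0.914 with ADGRL3). For the FLRTs they were TRPM3 (0.822 with FLRT1) and the cadherin gene CDH20 (0.831 with FLRT2). For the teneurins they were NELL1 (0.820 with TENM1), the calcium-binding protein gene CABP1 (0.888 with TENM2) and HS6ST3 (0.819 with TENM4). The candidates were 7441 named features with a mean of at least 10 CPM.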

How the data were processed

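Nuclei of frozen retinas were profiled with the 10x Genomics 3' kit, and the deposited matrices hold raw UMI counts per feature and nucleus, which per the file headers the authors made with Cell Ranger 6.1.2 (polyA RNA label) or 7.0.1 (total RNA label). The submitters' processing notes name versions 5.0.1 and 7.0.1, and the study aligned to a TS genome (TS_3.0). Whether intron reads were counted is not given in the sources used here. From these counts, nuclei were filtered (more than 200 and fewer than 6000 genes, mitochondrial share below 5%), 7940 called doublets (3.38 to 7.88% of a library) were taken out, and 103 Leiden clusters were built on 2000 variable genes without the members. At most 30 barcodes were shared between any pair of libraries. Clusters were named by marker lists, 18093 nuclei stayed unnamed, and nuclei whose own markers exceeded every other class's by a margin of 0.25 were kept, with 30388 named nuclei near that limit. Other gates were tried first and this was kept by how many nuclei it left, before any fit, and the naming and subtype thresholds (such as ISL1 for HCs and GRIK1 for OFF BCs) were set after the clusters were seen.

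UMIs were summed per retina and class (at least 10 nuclei) and fitted with edgeR 4.0.16 (quasi-likelihood test, TMM, filterByExpr) in R 4.3.3, with Benjamini-Hochberg adjustment over all features of a fit and a threshold of 0.05. Stage fits held the 3 stages and the processing set, fits of leading classes and subtypes held the retina. The study's own model used sex, which was not used here. The retinas of a stage are separate TSs by the study's methods. Astrocytes of Mature 4 and rods of Senile 1 were too few and were left out, as were S-cones of 2 retinas. Errors are SD over retinas or SE of a fit, intervals are 95%, and all cover these retinas only. The fits were tested on simulated data. Alternatives were DESeq2 1.42.0, RLE normalization, no low-count filter, a stricter gate (margin 0.5), at least 30 nuclei, each processing set alone, no set term, a replicate block and each retina left out.

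The members and lists were chosen with earlier results of these data known. Named genes were all members in every class, partners that passed the test, and the most correlated features, of which some are not reported here. Clusters used igraph 0.11.9. No sequences of these genes were used.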

Additional observations from a re-analysis of the deposited data

Results flagged for a closer look

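In BCs, TENM4 in Infancy 4 was at 81.4 CPM, below the other infant retinas at 89.1 to 91.7 CPM (gap over range 0.751, above the critical value of 0.71 for 5 samples). This was 1 of 27 groups looked at, in pairs of gene and class picked after their values were seen, and chance gives about 1 such value in 20 groups.

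The log2 difference of OFF over ON BCs changed between Infancy and Senile in the fit of both subtypes, by 0.84 for TENM4 (edgeR adjusted p = 0.0382) and by 0.42 for ADGRL3 (edgeR adjusted p = 0.0498). These calls were lost in 8 and 11 of the 15 fits that left out a retina, in the total RNA libraries alone and, for ADGRL3, also in the polyA RNA libraries.

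Several clusters without a class name held more of a member than the gene's highest class mean. FLRT2 was at 395 CPM in 747 unnamed nuclei (C57) and at 856 CPM in 685 unnamed nuclei (C100), of which 494 came from Mature 4. TENM1 was at 1681 CPM and TENM4 at 768 CPM in 496 unnamed nuclei (C42) led by CRH, GPR26 and FOXP2. TENM3 was at 3716 CPM in 1792 unnamed nuclei (C30) led by ERBB4, NTNG1 and HTR2A. TENM4 was at 537 CPM in 1602 unnamed nuclei (C63) and at 715 CPM in 498 unnamed nuclei (C86). Named AC clusters also lay above these class means, at up to 787 CPM of FLRT2, 2236 of TENM1, 7784 of TENM3 and 1364 of TENM4. Of the unnamed clusters given here, only C100 exceeded those values. The copy TENM1li1 had 17224 UMIs.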

How the results depend on the processing

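Of the calls for members between Mature and Infancy (1), 2 were found with DESeq2, 3 without the low-count filter, 3 in the polyA RNA set, 0 in the total RNA set and 1 without any single retina. Of all features, 2.15%, 1.02%, 1.24% and 0.124% were called in the first 4 of these settings, against 0.975% in the main fits. Between Senile and Infancy (1) the member counts in the same order were 4, 4, 2 and 0, with 0 over whole clusters without the gate (chosen after seeing the data) and 0 to 2 without a retina (0 without Infancy 5, and 2 without Mature 3, Senile 4 or Senile 5). The 1 call of the main fits was TENM2 in microglia, which entered the test through the later stages alone and is only described. The shares of all features were 2.35%, 1.09%, 1.45% and 0.393%, and 1.41% over whole clusters, against 1.5% in the main fits. Between Senile and Mature (0) the member counts were 1 with DESeq2 (0.492% of all features), 1 without the filter (0.505%) and 2 in the polyA RNA set (0.0888%), and 0 without any retina. Partner calls between Senile and Infancy (2) were 7 without the filter (1.09% of all features), 1 without the set term (1.03%), 1 with the stricter gate (1.45%) and 1 with at least 30 nuclei (1.47%). They were 0 in either set alone and 0 to 2 without a retina. Leading classes that differed from the next (8) numbered 7 to 8 without a retina, and subtype calls (28) 27 to 30. ADGRL3 in HCs over Müller cells was lost with the stricter gate (edgeR adjusted p = 0.189), with at least 30 nuclei (0.0628), in the polyA RNA set (0.585) and without Mature 3 (0.0796), TENM1 in ACs over BCs in the total RNA set (0.234), and TENM4 in RGCs over ACs in the polyA RNA set (0.119). TENM2 and TENM3 in the HC split were lost with DESeq2 (0.0690 and 0.108) and without the low-count filter (0.943 for both), and TENM3 in the total RNA set (0.0998). Without the low-count filter ADGRL3 (0.322), FLRT2 in Müller cells over ACs (0.254, log2 difference 0.17) and TENM4 (0.402) were lost and TENM3 in BCs over Müller cells passed. TENM1 was also lost over whole clusters without the gate (0.215, added after seeing the data). With the stricter gate the call between Senile and Infancy was TENM3 in cones in place of TENM2 in microglia. No result changed direction. Over all 9 classes the features called between Senile and Mature numbered 368 with DESeq2 against 19, and between Mature and Infancy 119 in the total RNA set alone against 729. The causes were not tested.

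With a replicate block in place of the processing set, the calls were 1, 1 and 0 for members and 2 for partners, and TENM4 in BCs was at 0.57 (edgeR adjusted p = 0.0205). The member call between Senile and Infancy was again TENM2 in microglia, with the limit given above. Of all features, 0.705%, 1.18% and 0.0147% were called in that setting for Mature minus Infancy, Senile minus Infancy and Senile minus Mature. The labels tie same-numbered retinas to no shared animal, litter or day, and not every same-numbered pair correlated over 0.1 (13 of 15 in BCs, lowest -0.16, and 12 of 15 in Müller cells). Within a processing set the median correlation in BCs was 0.329 for same-numbered and 0.396 for other retinas, so the numbers were not taken to pair them. Microglia had 11 to 65 nuclei per retina and HCs 14 to 117, and 1196 and 2606 of their features passed the low-count filter. In data simulated for Senile minus Infancy on those features, 52% of 2-fold and 91% of 4-fold changes were found in microglia and 49% and 87% in HCs.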
